A study of Mus musculus with 2 samples.

Results

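The genes described here are 10 genes named for the insulin-like growth factors (IGFs) in the newborn mouse bladder: the ligand Igf1, its receptor Igf1r, the binding protein genes Igfbp1 to Igfbp7 and the RNA-binding protein gene Igf2bp3. They were picked out of the files by symbol, and all 10 were found among the 43346 mouse genes of the files. The bladders of 2 pups of the mouse strain B6NCrl were taken on postnatal day 0, and total RNA above 200 nt was sequenced, each library starting from 10 ng and each pup giving 1 library. Both pups came from 1 pregnant female, share a donor identifier in the labels, carried no named mutation or treatment, and form a single group (n = 2) with no sex recorded. No condition is contrasted, so the data show how strongly each gene was expressed and how far 2 littermates differed. Levels are given in TPM, a measure of transcript abundance corrected for transcript length and depth that allows genes to be ordered, in each pup and as mean ± SD over the pups.

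IGF1 and IGF2 are secreted growth factors that signal through a receptor tyrosine kinase, the product of Igf1r. In extracellular fluid most IGF is held by 6 high-affinity binding proteins, IGFBP1 to IGFBP6, which carry the ligand, keep it from the receptor or release it locally when proteases cleave them. IGFBP7 shares their amino-terminal domain but binds IGFs weakly, and Igf2bp3 encodes an unrelated cytoplasmic protein that binds messenger RNAs, the Igf2 mRNA among them, and is mostly a fetal gene. In the bladder, as in other organs, IGF signalling is known as a stimulus for growth of smooth muscle, connective tissue and epithelium.

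Depth was 43653931 expected counts in pup 1 against 32564563 in pup 2. The defining markers of bladder tissue were present, since 8 of 8 urothelial, 7 of 7 smooth muscle and 6 of 6 fibroblast genes reached 1 TPM in each pup, and none of these genes was 1.5-fold apart. Some other marker lists did differ between the pups. Macrophage markers summed to 546 TPM in pup 1 and 1817 in pup 2, erythroid markers to 21719 and 59101, liver-type markers to 75.0 and 20.2, and cell cycle genes to 242 and 168. The sums in pups 1 and 2 were closer for endothelium (133 and 154 TPM), mesothelium (378 and 362 TPM) and skeletal muscle (8635 and 7713 TPM). In whole tissue, fewer cells of a type and less RNA per cell cannot be told apart.

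Igfbp2, Igfbp7 and Igfbp4 were the abundant members, and the receptor stood far below them. By mean TPM the order was Igfbp2, Igfbp7, Igfbp4, Igfbp6, Igfbp3, Igfbp5, Igf1, Igf2bp3, Igf1r and Igfbp1. Taking 1 TPM in each pup as the limit, 9 of the 10 genes were expressed, against 58.5% of the 21474 protein-coding genes. Of the 9 pairs of neighbours in this order, the values of the 2 pups overlapped for Igfbp2 with Igfbp7 and for Igfbp5 with Igf1, and did not overlap for the other 7 pairs.

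**Figure D1:**
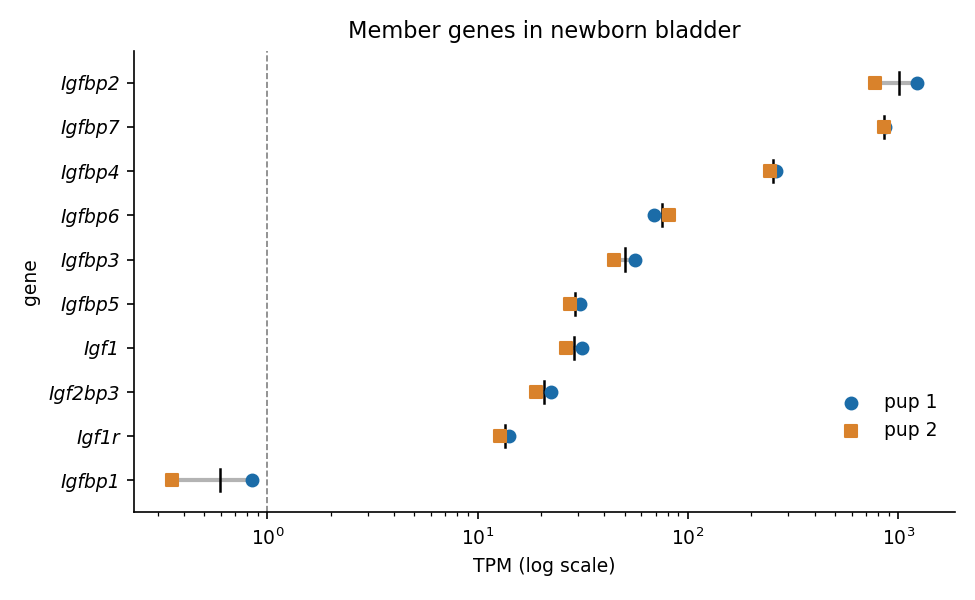
TPM (log scale) of the 10 member genes in pup 1 (circles) and pup 2 (squares), with a black bar at the mean and a grey line over the range of the 2 pups; the dashed line marks 1 TPM. Igfbp2 and Igfbp7 lie near 1000 TPM, Igfbp1 lies below 1 TPM in both pups, and Igfbp2 and Igfbp1 have the widest ranges on this scale.

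Igf1, the ligand made in liver and in many connective tissues, was moderately expressed. Its level was 31.2 TPM in pup 1 and 26.2 TPM in pup 2, a mean of 28.7 ± 3.53 TPM (SD, n = 2), on 4427 and 3078 expected counts. The antisense gene Igf1os had 2 and 1 counts. Igf1 ranked 3996 among the 12568 protein-coding genes expressed in both pups, whose median was 14.3 TPM. The gene lies on chromosome 10 from 87858265 to 87937042 on the forward strand (mm10). The other IGF ligand, the fetal growth factor Igf2, stood far above it, at 527 TPM in pup 1 and 461 TPM in pup 2. Igf2 over Igf1 was therefore 16.9 in pup 1 and 17.6 in pup 2 by TPM. By reads alone the ratio was 3.49 and 3.42, and with all reads of each gene placed on its longest transcript it was 5.25 and 5.14. The direction was the same on each scale, but the size depends on how much weight the short annotated transcripts of both genes receive.

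Igf1 makes more than one mRNA, and the files divide its reads over 8 annotated transcripts. These differ at both ends of the coding sequence, and the alternative coding segments are shown because the transcript values below turn on them. In the 4 lines, read from transcripts of GENCODE M21 on the forward strand of chromosome 10 (GRCm38), capitals mark the leader or exon segment named for that line and lower case the coding bases next to it. The capitals of the tail without the alternative exon are the coding part of the last exon, whose first 23 bases recur in lower case at the end of the other tail. The class 1 start codon segment lies at chr10:87859350-87859412 (63 nt), the class 2 segment at chr10:87861371-87861385 (15 nt), the common tail segment at chr10:87930675-87930731 (57 nt) and the alternative exon at chr10:87915298-87915349 (52 nt).
class 1 leader: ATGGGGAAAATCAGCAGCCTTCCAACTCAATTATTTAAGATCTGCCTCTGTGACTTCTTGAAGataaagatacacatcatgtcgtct
class 2 leader: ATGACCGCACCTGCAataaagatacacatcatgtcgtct
tail without the alternative exon: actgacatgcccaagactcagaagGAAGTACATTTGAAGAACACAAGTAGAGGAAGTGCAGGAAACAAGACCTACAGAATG
tail with the alternative exon: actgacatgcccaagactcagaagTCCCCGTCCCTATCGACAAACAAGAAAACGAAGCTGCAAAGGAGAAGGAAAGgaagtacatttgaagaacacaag

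The leaders encode different starts of the signal peptide, and the tails encode different E peptides, the carboxy-terminal extensions that are cleaved from mature IGF1. Since 52 is not a multiple of 3, the alternative exon shifts the reading frame, and the last exon then contributes 23 coding bases in place of 57. The form with this exon is the one called Eb, or mechano growth factor, in rodents.

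Most Igf1 reads were assigned to a single long transcript, Igf1-202, of 7052 nt, which has the class 1 leader and skips the 52-nt exon. It held 93.9% of the gene's reads in pup 1 and 94.4% in pup 2, and 64.0% and 66.6% of its TPM. The next was Igf1-206, of 651 nt, with the class 2 leader and the 52-nt exon, at 18.4% and 20.3% of TPM on 94.7 and 70.3 expected counts. Summed over transcripts, the class 1 leader took 68.7% and 69.5% of TPM (95.4% and 95.3% of reads). Transcripts with the 52-nt exon spliced in took 28.4% and 27.5% of TPM but 4.16% and 3.58% of reads. A further transcript, Igf1-201, has a longer version of that exon and took 2.69% and 3.05% of TPM. Both pups gave nearly the same split on each scale, while the 2 scales differed widely, because TPM divides by length and the 3 transcripts with the exon are annotated as 1673, 651 and 510 nt. The posterior SD of Igf1-206, the authors' estimate of how uncertain its share of reads is, was 22.3 counts in pup 1 and 19.1 in pup 2. For Igf1-203, which also has the exon, it was 41.4 and 31.6 on 68.5 and 28.8 expected counts. For Igf1-208, the other such transcript, it was 12.85 and 9.2 on 20.8 and 11.1. The shares with the exon are thus uncertain. The leader shares are uncertain as well, because the longest class 2 transcript, Igf1-201, has 2292 nt. Reads on bases found only in Igf1-202 count for class 1 whatever leader their molecule had.

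**Figure D2:**
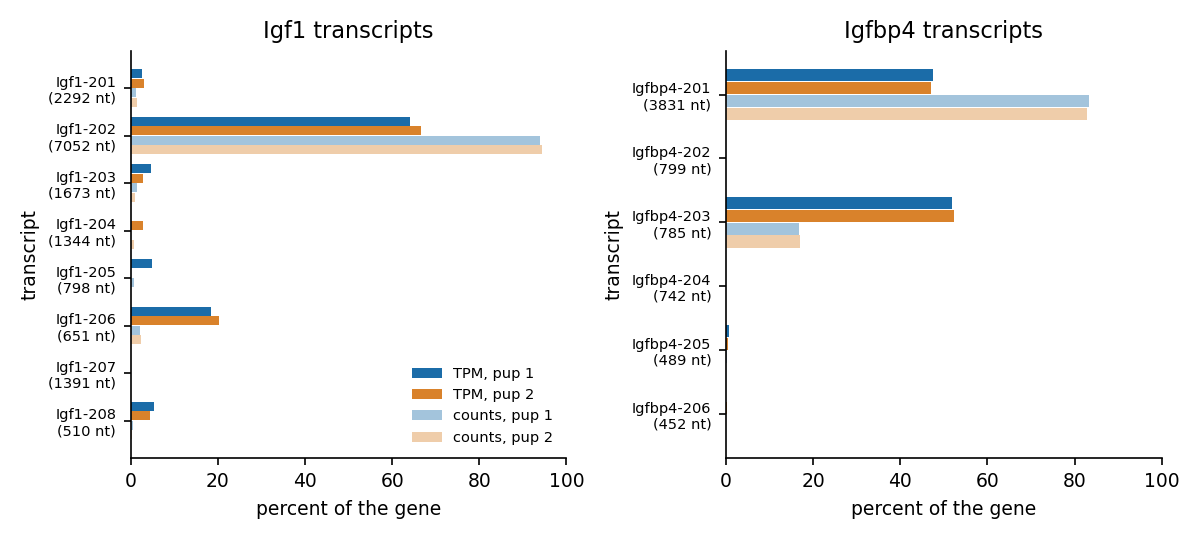
Percent of the gene on each annotated transcript of Igf1 (left) and Igfbp4 (right), with transcript lengths in nt. Dark bars give shares of TPM and pale bars shares of expected counts, in pup 1 (blue) and pup 2 (orange). Igf1-202 leads on both scales, whereas Igfbp4-203 leads Igfbp4 by TPM with 16.7% and 17.0% of the reads.

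Igf1r, the receptor tyrosine kinase for both IGFs, had the lowest level of the 9 expressed members. It was at 14.1 TPM in pup 1 and 12.7 TPM in pup 2 (13.4 ± 0.969 TPM, n = 2), on 1851 and 1336 counts, all on 1 annotated transcript of 4489 nt. It ranked 6521 among 12568 expressed protein-coding genes, close to their median. The gene spans 67952827 to 68233668 on the forward strand of chromosome 7. Insr, the insulin receptor, which pairs with the Igf1r product in hybrid receptors, was at 18.97 and 18.71 TPM, above Igf1r in both pups. This order turned with all reads of each gene on its longest transcript, where Insr was at 5.38 and 4.93 TPM, and by counts, where Insr had 1490 and 1092. Igf2r, the mannose 6-phosphate receptor that takes up IGF2 for breakdown, was at 39.5 and 37.9 TPM, 2.805 and 2.980 times the Igf1r level.

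Igfbp2, a secreted binding protein of fetal tissues with some preference for IGF2, had the highest mean of the members and varied most among the expressed ones. Its level was 1232 TPM in pup 1 and 775 TPM in pup 2 (1003 ± 323 TPM), on 44500 and 22362 counts. By mean it ranked 111 among expressed protein-coding genes. In pup 1 it was above Igfbp7 by a factor of 1.43, and in pup 2 below it, at 0.905 of the Igfbp7 level, so which binding protein gene led depended on the pup. Nearly all of it was the full-length transcript Igfbp2-201, at 99.6% of TPM in pup 1 and 99.7% in pup 2.

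Igfbp2 and Igfbp5 are neighbours on chromosome 1, at 72824503 to 72852474 on the forward strand and 72857932 to 72874884 on the reverse strand, with their ends facing each other across 5457 nt and no annotated gene between. Their levels were far apart, with Igfbp2 over Igfbp5 at 40.1 in pup 1 and 28.4 in pup 2. Igfbp1 and Igfbp3 form the second such pair, on chromosome 11 at 7197782 to 7202546 (forward) and 7206086 to 7213923 (reverse), 3539 nt apart. There Igfbp3 was 66.3 and 126 times higher than Igfbp1.

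The proximal promoters of the highest and the lowest member are printed to set the ends of the range side by side. Each line gives the 250 bases before the RefSeq start site (GRCm38.p6, gene strand), for Igfbp2 at chr1:72824230-72824479 and for Igfbp1 at chr11:7197537-7197786, both forward. Capitals mark matches to the 4 motifs searched on both strands, whose matches overlap nowhere in the printed windows. The motifs were the start-site box in its usual spelling TATAAA, a variant of this box spelled TATTTAA, the Sp1-type box GGGCGG, and CAAAACA, which is the core of the insulin response sequence known from the human IGFBP1 gene.
Igfbp2: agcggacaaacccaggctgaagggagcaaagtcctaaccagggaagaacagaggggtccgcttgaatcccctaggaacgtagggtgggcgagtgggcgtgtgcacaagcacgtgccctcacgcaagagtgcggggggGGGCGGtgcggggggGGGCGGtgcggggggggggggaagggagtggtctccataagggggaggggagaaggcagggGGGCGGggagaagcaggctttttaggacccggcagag
Igfbp1: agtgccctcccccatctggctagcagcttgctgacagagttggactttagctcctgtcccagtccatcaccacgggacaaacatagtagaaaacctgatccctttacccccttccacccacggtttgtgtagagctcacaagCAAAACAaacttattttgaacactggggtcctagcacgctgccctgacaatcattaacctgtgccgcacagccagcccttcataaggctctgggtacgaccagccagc

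The Igfbp2 window had 67.2% G or C and 3 matches to GGGCGG, starting 113, 98 and 37 bases before the start site. The Igfbp1 window had 53.2% G or C and 1 CAAAACA, starting 108 bases before the start site. In the order of levels, G or C was 74% for Igfbp7, 69.2% for Igfbp4, 49.6% for Igfbp6 and 73.2% for Igfbp3. It was 58.8% for Igfbp5, 52.8% for Igf1, 60.4% for Igf2bp3 and 77.6% for Igf1r. The highest share was thus that of Igf1r, the lowest of the expressed members. Over the 32851 promoter windows of the same length the median was 52.4% G or C, 32.7% held GGGCGG, 12.4% held TATAAA, 4.18% held TATTTAA and 5.56% held CAAAACA. Among the 10 members, GGGCGG was found for Igfbp2, Igfbp7 and Igf1r, TATAAA for Igfbp4 and Igfbp6, TATTTAA for Igfbp5 and CAAAACA for Igfbp1. The TATAAA of Igfbp4 starts 28 bases before the start site on the gene strand, that of Igfbp6 148 bases before it on the opposite strand. For Igf1 the only window was chr10:87860861-87861110, which lies between the class 1 and class 2 segments. The start of the class 1 transcripts, to which 95.4% and 95.3% of the Igf1 reads were assigned, was therefore not searched. These are matches of letters, with no measurement of factor binding. Igfbp2 has a second RefSeq start, whose window held none of the 4 motifs.

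Igfbp4, a binding protein known mainly for restraining IGF action until the protease PAPP-A cleaves it, followed Igfbp2 and Igfbp7. It was at 261 TPM in pup 1 and 244 TPM in pup 2 (253 ± 12.3 TPM), on 16676 and 12352 counts, and lies on chromosome 11 from 99041244 to 99054392. Its TPM rests on a split of reads between a coding transcript of 3831 nt, Igfbp4-201, and Igfbp4-203, of 785 nt, which has no annotated coding sequence. Igfbp4-203 is told apart by a first exon of 28 nt that no other annotated transcript of the gene overlaps. It took 51.9% and 52.4% of the gene's TPM on 16.7% and 17.0% of its reads. With all reads placed on the 3831-nt transcript, Igfbp4 was at 149 TPM in pup 1 and 138 TPM in pup 2, a mean 1.76 times lower, and its place in the order did not change.

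Igfbp6, the binding protein with the strongest preference for IGF2, was the only binding protein of the high-affinity group with more reads per depth in pup 2. It was at 68.8 TPM in pup 1 and 81.2 TPM in pup 2 (75.0 ± 8.74 TPM), on 2087 and 1967 counts, on chromosome 15 from 102144362 to 102149511. Igfbp3, the main carrier of IGF1 in adult serum, was at 55.7 TPM in pup 1 and 44.2 TPM in pup 2 (49.95 ± 8.09 TPM). The values of the 2 genes did not overlap, with Igfbp6 over Igfbp3 at 1.24 in pup 1 and 1.84 in pup 2. Igfbp5, a matrix-associated binding protein of muscle and bone, was at 30.8 TPM in pup 1 and 27.3 TPM in pup 2 (29.0 ± 2.43 TPM). Its level was not distinguishable from that of Igf1, which was above it in pup 1 and below it in pup 2. With all reads of each gene on its longest transcript, Igfbp5 was above Igf1 in both pups, at 1.45 and 1.46 times its level. The Igfbp5 counts, 5438 and 3830, exceeded those of Igfbp6 and Igfbp3, because its transcript is 6006 nt long.

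Igfbp1, a binding protein secreted mainly by liver and repressed by insulin, was near the limit of what these libraries resolve. It was at 0.84 TPM in pup 1 and 0.35 TPM in pup 2, on 36 and 12 counts. The level at which 3 counts would stand was 0.0703 TPM in pup 1 and 0.0880 TPM in pup 2, so both values were above it. Liver-type markers were lower in pup 2 as well. Of 7 such genes, 5 reached 1 TPM in each pup and none was at 0, with single genes from 2.35 to 20.96 TPM in pup 1 and from 0.57 to 4.91 TPM in pup 2. Of the 6 that averaged 100 counts or more, 5 were at least 1.5-fold lower in pup 2, against 1.67% of the 12733 genes with such an average. The part of liver RNA in the Igfbp1 counts was not tested.

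Igfbp7, a protein of vessels and matrix with low affinity for IGFs, was close to Igfbp2 in mean level and nearly the same in both pups. It was at 861 TPM in pup 1 and 857 TPM in pup 2 (859 ± 3.17 TPM), on 26324 and 20928 counts, and ranked 132 among expressed protein-coding genes. It lies on the reverse strand of chromosome 5 from 77349240 to 77408041. The opposite strand carries Polr2b, at 21.7 and 20.8 TPM, and strand use was not stated. The posterior SD of the Igfbp7 count was 0 in both pups, so the deposited estimate shared none of its reads with another gene.

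Binding protein transcripts as a whole summed to 2511 TPM in pup 1 and 2028 TPM in pup 2 over Igfbp1 to Igfbp7. Igfbp2 made up 49.1% of this sum in pup 1 and 38.2% in pup 2, Igfbp7 34.3% and 42.2%, and Igfbp4 10.4% and 12.0%. Igfbp2, Igfbp4 and Igfbp7 together held 93.8% and 92.5%. The 6 high-affinity genes, without Igfbp7, summed to 1650 and 1172 TPM, which was 2.96 and 2.41 times the summed TPM of Igf1 and Igf2. This ratio rests on the short Igf2 transcripts, and with all reads of each gene on its longest transcript it was 11.6 and 9.38. Both are comparisons of transcripts and not of proteins.

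**Figure D3:**
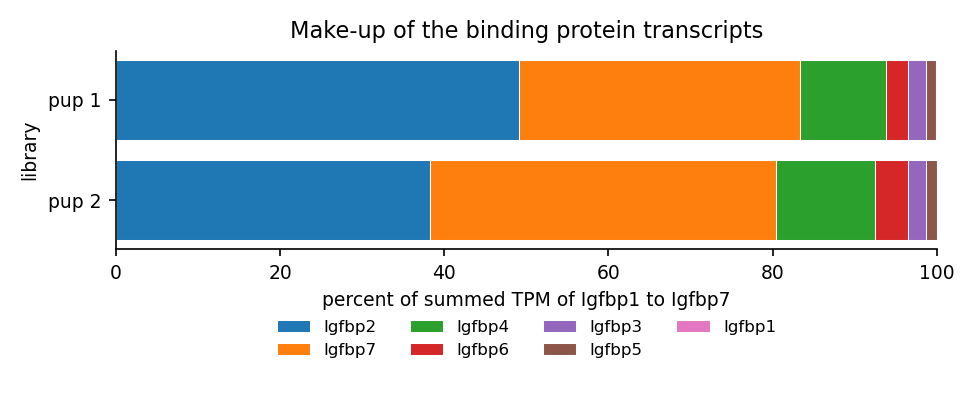
Share of each gene, in percent, in the summed TPM of Igfbp1 to Igfbp7, 1 bar per pup. Igfbp2 and Igfbp7 together fill 83.4% of the bar in pup 1 and 80.4% in pup 2, with Igfbp2 the larger share in pup 1 and Igfbp7 in pup 2; Igfbp1, under 1% in both, is too thin to see.

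Igf2bp3, whose protein binds and stabilises messenger RNAs in embryonic tissues, was expressed in both newborn bladders. It was at 22.4 TPM in pup 1 and 18.9 TPM in pup 2 (20.6 ± 2.45 TPM), on 2842 and 1919 counts, and ranked 5046 among expressed protein-coding genes. The gene lies on the reverse strand of chromosome 6 from 49085223 to 49214957. It was the only member whose reads were not all assigned to it alone, with a posterior SD of 9.21 counts in pup 1 and 9.52 in pup 2, whereas this SD was 0 for the other 9 genes. Malsu1, on the opposite strand of the same locus, was at 52.1 and 54.7 TPM. The Igf2bp3 paralogs were lower in both pups, with Igf2bp2 at 18.7 and 15.8 TPM and Igf2bp1 at 6.48 and 3.78 TPM. Igf2bp3 was 1.197 and 1.198 times Igf2bp2, and 3.45 and 5 times Igf2bp1. With all reads of each gene on its longest transcript these ratios were 1.74 in both pups for Igf2bp2, and 5.67 and 6.12 for Igf2bp1. Part of the Igf2bp1 TPM lay on short non-coding transcripts, and by counts its log2 ratio of pup 2 over pup 1 was -0.27 (-0.42 to -0.13). With all reads of each gene on its longest transcript, Igf1 was at 19.9 ± 1.95 TPM and Igf2bp3 at 20.6 ± 2.45 TPM. The values of the 2 pups then overlapped. Within each pup Igf1 was slightly lower, at 21.3 against 22.4 TPM in pup 1 and 18.5 against 18.9 TPM in pup 2.

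Between the pups, most members were close. The ratio of pup 2 over pup 1 was taken from counts scaled for depth and composition with TMM factors, with an exact binomial 95% interval that covers counting error only, and with 1 library per animal no test across animals is possible. Among the 9 members averaging 100 counts or more, 1 was at least 1.5-fold apart, against 4.92% of the 12733 genes with such an average. None was 1.5-fold higher in pup 2, where the share over all genes was 3.25%, and 1, Igfbp2, was 1.5-fold lower, where it was 1.67%. The median log2 ratio was -0.10 for the 9 members and -0.02 for all these genes. For 7 of the 9 the counting interval excluded equal levels, against 52.3% of all genes, so this property is common in these libraries.

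Igfbp2 differed most among the 9, with a log2 ratio of -0.59 (95% interval -0.61 to -0.57), or 1.5-fold lower in pup 2 with an interval of 1.48 to 1.53. By TMM scaling it thus lies at the 1.5-fold threshold and not clearly past it, and 4.85% of the 12733 genes were at least as far apart. By the ratio of TPM, the log2 ratio of Igfbp2 was -0.67. The cell cycle genes were lower in the same pup, none of them at 0, and so were the liver-type markers given above. Of the 6 cell cycle genes, 3 were at least 1.5-fold lower, against 1.67% of the 12733 genes. The part of the cell cycle genes' or the liver-type markers' difference in that of Igfbp2 was not tested. The other genes lower in pup 2 with an interval that excluded equality were Igfbp3 at -0.25 (-0.32 to -0.17), Igf2bp3 at -0.16 (-0.25 to -0.08), Igf1 at -0.12 (-0.19 to -0.05) and Igfbp5 at -0.10 (-0.16 to -0.04). Igfbp6 was higher in pup 2 at 0.32 (0.23 to 0.41). Igfbp7 was at 0.07 (0.05 to 0.10), and at -0.01 by the ratio of TPM. Igf1r at -0.07 (-0.17 to 0.04) and Igfbp4 at -0.03 (-0.06 to 0.00) were not distinguishable between the pups even by counting error.

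Ratios of TPM ran lower than these by a median of 0.08 on the log2 scale over all genes, so the small values above are relative to the TMM scaling. Igfbp1, below the count limit, had a log2 ratio of -1.18 with an interval of -2.26 to -0.21, which is too wide to place it. Macrophages are a known source of IGF1, and all 8 macrophage markers were higher in pup 2. Of these, 7 were at least 1.5-fold higher, against 3.25% of the 12733 genes. None of the 8 was at 0. Their levels ranged from 6.51 to 216 TPM in pup 1 and from 8.38 to 1106 TPM in pup 2. Igf1 itself was lower in pup 2 on both scales. The part of macrophages in the Igf1 level was not tested.

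**Figure D4:**
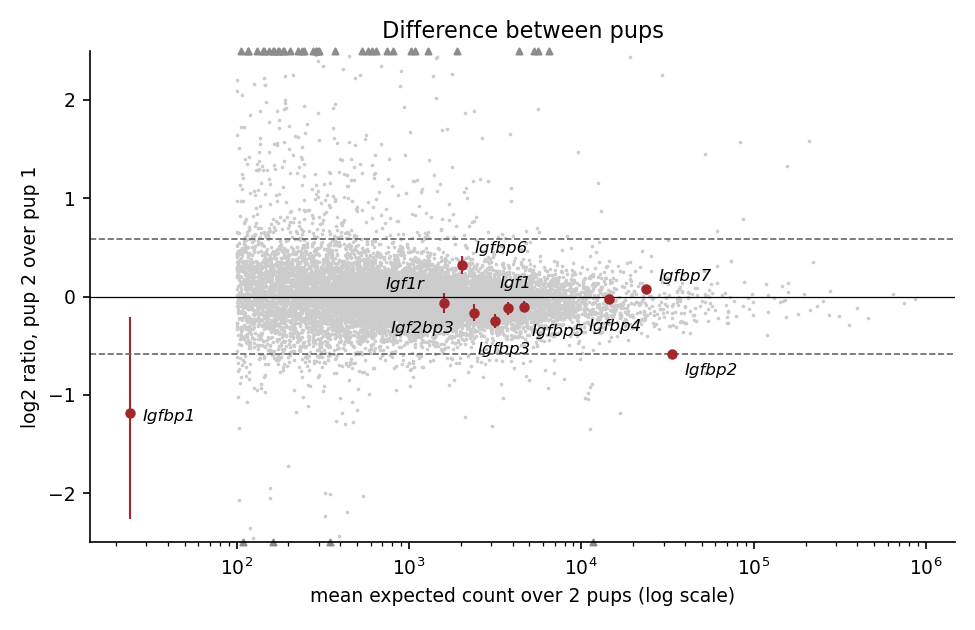
Log2 ratio of pup 2 over pup 1 after TMM scaling against mean expected count (log scale) for the 12733 genes averaging 100 counts or more (grey) and the 10 members (red, with 95% counting intervals). Dashed lines mark 1.5-fold and triangles at the edges stand for the 41 genes beyond 2.5 in either direction. Igfbp2 lies on the lower line, Igfbp1 has the widest interval, and the other 8 members lie between the lines.

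The rest of the IGF pathway, a list of 42 other genes, placed the members in context. Of these, 31 reached 1 TPM in each pup, against 58.5% of all protein-coding genes. Of the 31 averaging 100 counts or more, none was 1.5-fold higher and 2 were 1.5-fold lower in pup 2. The shares over all genes with such an average were 3.25% and 1.67%. The growth hormone receptor Ghr, which drives Igf1 transcription in liver, was at 37.9 and 32.8 TPM. The insulin genes and the serum carrier subunit were at or near 0. Ins1 had 0 counts in both pups, which allows up to 0.109 TPM in pup 1 and 0.137 TPM in pup 2, and Ins2 had 1 count in each. Igfals, which forms the large serum complex with IGFBP3 or IGFBP5, had 3 and 2 counts.

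Proteases that cleave binding proteins were mostly low. Htra1, a secreted serine protease with an IGFBP-type domain of its own, led them at 99.8 and 71.7 TPM, with a log2 ratio of -0.40. Pappa, the metalloprotease that acts on IGFBP4, was at 1.59 and 1.47 TPM, far below its substrate's transcript, and Pappa2 was below 1 TPM in both pups. The stanniocalcins Stc1 and Stc2, inhibitors of these metalloproteases, were at 2.12 and 1.71 TPM and at 7.12 and 5.94 TPM, and Adam28, a membrane protease, was at 4.27 and 4.32 TPM.

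Among adaptors of the receptors, the growth-restraining Grb10 was the highest at 111 and 90.0 TPM, followed by Shc1 at 68.4 and 65.4 TPM and Grb14 at 62.8 and 50.9 TPM. The insulin receptor substrates Irs1 and Irs2 were lower, at 3.61 and 3.30 TPM and at 5.73 and 5.18 TPM, and Irs4 had 2 and 4 counts. All 8 genes of the signal relay were expressed, from Foxo3 at 4.31 and 4.37 TPM to the kinase Akt1 at 46.7 and 59.6 TPM and its paralog Akt2 at 47.2 and 49.7 TPM. Pik3r1, the regulatory subunit of phosphatidylinositol 3-kinase, was at 20.4 and 20.8 TPM.

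Fetal RNA regulators often studied with the Igf2bp genes were nearly silent beside Igf2bp3. Lin28a had 0 and 3 counts, Lin28b 4 and 5, and Hmga2, a chromatin protein of embryonic growth, 49 in each pup (0.45 and 0.57 TPM). Of that group of 5, Igf2bp1 and Igf2bp2 alone reached 1 TPM in each pup.

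Of 8 further genes with an IGFBP-type domain, 6 were expressed in both pups. Ccn1, a matrix signalling protein, was at 213 and 187 TPM, which is below the deposited Igfbp4 level and above the 149 and 138 TPM of Igfbp4 with all reads on its longest transcript. Ccn2, the connective tissue growth factor, was at 52.2 and 35.3 TPM and Ccn4 at 25.1 and 16.3 TPM, and these were the 2 pathway genes averaging 100 counts or more that were at least 1.5-fold lower in pup 2, with log2 ratios of -0.70 (-0.79 to -0.61) and -0.60 (-0.73 to -0.48). The endothelial gene Esm1, at 1.04 and 0.54 TPM on 62 and 26 counts, had a log2 ratio of -0.85 (-1.57 to -0.17), and Igfbpl1, a binding protein-like gene, had 1 and 2 counts.

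**Figure D5:**
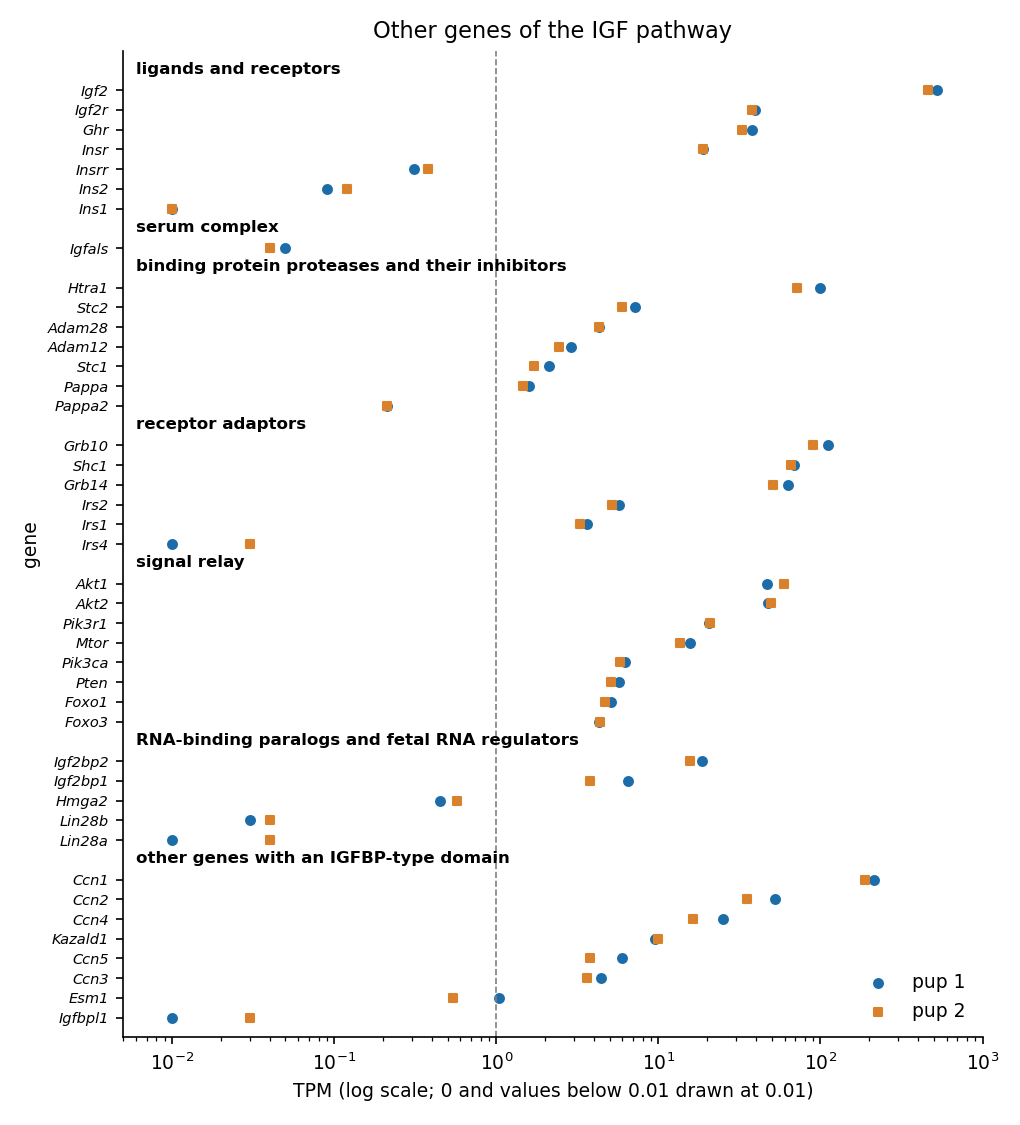
TPM (log scale) of the 42 other IGF pathway genes by group in pup 1 (circles) and pup 2 (squares), with the dashed line at 1 TPM and values under 0.01 drawn at 0.01. Igf2 is the highest gene of the list at 527 and 461 TPM, and Ins1, Igfals, Irs4, Lin28a, Lin28b and Igfbpl1 lie below 0.1 TPM in both pups.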

How the data were processed

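The authors deposited 1 gene and 1 transcript table per library in RSEM layout, on mm10 with GENCODE M4, per the deposited text listings. Aligner, tool versions and strand: not given in the sources used here. In the deposited tables an expected count is an estimated number of reads, fractional where reads fit several transcripts. The deposited TPM is scaled over all entries, spike-ins included, and the deposited percent columns give each transcript's share of its gene's TPM. Symbols and coordinates came from GENCODE M21 (same assembly; 42462 of 43346 mouse genes matched), promoters from RefSeq (GRCm38.p6; 10 of 10 members).

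Expressed means at least 1 TPM in both pups. Rounded counts of all mouse genes were scaled with TMM (edgeR 4.0.16, R 4.3.3), with DESeq2 1.42.0 size factors as an alternative. Intervals are Clopper-Pearson at 95% (scipy 1.17.1) and, like the limit of 3 counts, cover counting error only. The steps were tested on simulated data with changes larger than 1.5-fold, so the simulation says nothing about changes close to that threshold. With 1 library per pup no p-value was computed. The members and lists were chosen with earlier results of these data known. Named are all members, up to 3 genes per pathway group, 7 preset genes and genes 1.5-fold apart; Ins1, Ins2, Pappa2, Stc1, Irs1, Irs2, Irs4, Foxo3, Igf1os, Malsu1, Lin28a, Lin28b, Esm1, Igfbpl1 and Polr2b were added after their values were seen.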

Additional observations from a re-analysis of the deposited data

How the results depend on the processing

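The 9 expressed members numbered 9 at a threshold of 0.5 or 5 TPM and by posterior mean TPM, and the leading transcript was the same for all 10 members by posterior mean percent and in either pup alone. The summed TPM of Igfbp1 to Igfbp7 ranged from 2028 in pup 2 alone to 2511 in pup 1 alone. It was 2223 by posterior mean, 2574 when TPM was rescaled without spike-ins, mitochondrial genes, globins and short structural RNAs, and 2088 with all reads on the longest transcript, an alternative chosen after seeing the data, here and in every ratio given for it. With the rescaled TPM, the mean levels of 7 of the 10 members moved by at least their SD over the pups, Igfbp7 from 859 to 976 TPM. The number of members 1.5-fold apart was 1 with DESeq2 size factors, TPM ratios or posterior mean counts. It was 2 with a mean count of at least 1, where Igfbp1 joined, and 0 at a threshold of 2-fold. The log2 ratio of Igfbp7 turned from 0.07 to -0.0075 by the ratio of TPM, with or without 1 added. Ratios of TPM ran lower by a median of 0.08 over all genes, which is the size of this move. By the ratio of TPM, 5 other members, Igfbp2 at -0.67 among them, moved outside their counting intervals. No paired analysis was possible because both pups belong to 1 group. Depth limits Igfbp1 above all, at 36 and 12 counts.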
